A study of Rattus norvegicus with 36 samples.

Results

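The genes described here take glucose into the cell, break it down to pyruvate and lactate, and store it as glycogen. They were chosen by symbol, as 38 names that cover glucose transporters, the enzymes of glycolysis and its regulators, lactate dehydrogenases and lactate transporters, the kinases of pyruvate dehydrogenase, and glycogen enzymes. Of these, 37 symbols were found as 39 identifiers among the 24275 genes listed, because *Pkm* and *Pfkfb4* each carry 2 identifiers. *Pdha1* was not analysed here. The rule uses symbols alone.

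RNA was measured in H9C2 cells, a rat line of cardiac myoblasts, after transfection of a mimic control (MC), of miR-125b, or of a miR-125b isomiR. All groups received 25 nmol/L of mimic with a lipid reagent, and each mimic was tested in normoxia and in hypoxia. The isomiRs, Plus A and the shortened Trim A, Trim AG and Trim AGU, differ from miR-125b at the 3′ end. The series has 36 samples in 12 groups, and counts of 33 libraries in 11 groups were used, with 3 libraries per group; Normoxia MC is known here only as a mean given by the authors. Hypoxic cells were kept in serum-free medium with low glucose and normoxic cells in fresh normal medium, so oxygen, serum and glucose supply cannot be told apart in any comparison of hypoxia with normoxia. The cells are 1 established line, and nothing in the labels says that replicates came from separate cultures, so p-values measure the spread between these libraries, which may be technical. In bulk RNA, fewer cells of a kind and less RNA per cell cannot be told apart.

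Library totals were 28361216 to 42672584 counts, and the 3 libraries of Hypoxia Trim AG were the deepest. The muscle and myoblast markers fixed for the check were all found, 9 of 9. Their summed level was 8708 to 9076 CPM (counts scaled to library total) in Hypoxia MC, 10200 to 15362 CPM in hypoxia with the other mimics and 10690 to 13754 CPM in normoxia. The differentiation marker *Myog* was at 342 to 359 CPM in Hypoxia MC against 10.4 to 64.7 CPM in every other group, and *Tnnt2* at 295 to 316 CPM against 9.22 to 54.3 CPM, and both were higher in Hypoxia MC than in any other library. The summed level is mostly *Acta2* and *Vim*, and *Acta2* was lowest in Hypoxia MC, at 3921 to 4128 CPM against 6943 to 11155 CPM elsewhere. *Gata4* was lower there too (8.72 to 9.74 CPM against 10.2 to 16.4 CPM), while *Cdh15* and *Des* lay within the range of the other groups. *Vim* was at 3670 to 3790 CPM in Hypoxia MC, above every other library except Hypoxia Trim AGU replicate 2 (4624 CPM). *Mef2c* was at 47.3 to 51.3 CPM in Hypoxia MC and 15.2 to 47.5 CPM elsewhere. These levels stand beside each comparison with Hypoxia MC, and their part in the results was not tested. *Nkx2-5* was at most 0.987 CPM, and the markers of blood, epithelial and liver cells that were found (*Ptprc*, *Epcam*, *Cdh1*, *Alb*) were at most 0.261 CPM. Replicates of Hypoxia Trim AGU differed most, with a chi-square per gene of 236 between replicates 1 and 2 against 4.97 in the closest pair of any group. Mitochondrial genes took 5.01%, 5.29% and 5.70% of the counts in replicate 2 of Hypoxia Trim A, Trim AG and Trim AGU, 4.45% to 4.57% in replicate 3 of these groups, and 3.15% to 4.16% in every other library. Hypoxia Trim AGU replicate 2 also had the fewest genes detected, 16981 against 18342 to 19451 elsewhere. Replicate 2 of each of these 3 groups was the lowest of its group for *Slc2a1*, *Hk2*, *Pfkl* and *Pfkm*, and replicate 1, at 3.29% to 3.52% mitochondrial counts, the highest. The part of this difference in the values of the hypoxic trimmed groups was not tested. *Cav1* was at 268.9, 98.0 and 98.3 CPM in Normoxia Plus A and at 102, 282 and 263 CPM in Normoxia miR-125b. Replicate 1 of each of these groups therefore lay with the other group, and comparisons of the 2 groups are given with and without both libraries. Other comparisons that use either group keep these libraries, and each was only left out in turn there. Among them are the normoxic comparisons with miR-125b and the interactions of Trim A, Trim AG and Trim AGU.

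Glucose enters muscle cells through facilitative transporters, is phosphorylated by hexokinase, and is committed to glycolysis by phosphofructokinase, which is activated by the fructose 2,6-bisphosphate that the PFK-2 enzymes make and remove. Lactate dehydrogenase turns pyruvate into lactate and regenerates NAD+, monocarboxylate transporters carry lactate across the membrane, and pyruvate dehydrogenase kinases hold pyruvate back from the mitochondria. Many of these genes are known targets of the hypoxia-inducible factor HIF-1, and heart and skeletal muscle are known for isoforms of their own, such as the M subunit of phosphofructokinase and the H subunit of lactate dehydrogenase.

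The mimics share a seed and differ in their last bases, and they are shown because each comparison below turns on that end. The lines give the mature rat sequence of miR-125b from RefSeq, at chr11:29732588-29732609 on the + strand of GRCr8, and the same sequence with the 3′ change that each name states. Capitals mark the seed, bases 2 to 8, which is CCCUGAG in all of them.
Plus A: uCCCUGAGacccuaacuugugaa
miR-125b: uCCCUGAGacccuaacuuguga
Trim A: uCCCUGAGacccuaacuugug
Trim AG: uCCCUGAGacccuaacuugu
Trim AGU: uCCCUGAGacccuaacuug
The mimics run from 23 bases in Plus A to 19 bases in Trim AGU.

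Levels of different genes were compared in FPKM, the authors' count scaled by gene length and by a factor of each library. That factor is not proportional to the library total used for CPM. Over the 33 libraries, 8 of the 39 identifiers had a median of at least 100 FPKM. They were *Gapdh* (1880 FPKM), *Aldoa* (1573), *Eno1* (933), *Pkm* (919.5), *Ldha* (809.9), *Pgam1* (376), *Pgk1* (373) and *Gpi* (161). Each of them but *Ldha* encodes an enzyme of the main glycolytic chain, and *Ldha* encodes the M subunit of lactate dehydrogenase. A middle class held *Ldhb* (59.7 FPKM), the hexokinase *Hk1* (47.8), the phosphofructokinase subunits *Pfkl* (47.0) and *Pfkm* (36.4), the muscle enolase *Eno3* (44.5), the phosphoglucomutase *Pgm1* (41.0), the other *Pkm* identifier (33.2), glycogen synthase *Gys1* (25.9), the lactate transporter *Slc16a1* (24.8) and the glucose transporter *Slc2a1* (18.8). *Pdk2* (13.8), *Hk2* (13.4), *Tpi1* (13.0), *Pfkp* (12.03), *Pdk1* (10.3), *Gbe1* (9.81) and *Pdk3* (6.93) followed. *Pfkfb3* (5.37), the insulin-responsive transporter *Slc2a4* (5.07), *Pgam2* (4.53), *Pfkfb2* (3.56), *Pfkfb1* (3.17), *Pygm* (2.12) and *Eno2* (1.78) were lower still. A further 7 identifiers had a median below 1 FPKM, namely the lactate exporter *Slc16a3* (0.726), both *Pfkfb4* identifiers (0.788 and 0.0803), *Pygl* (0.178), *Aldoc* (0.166), *Slc2a3* (0.0938) and *Pdk4* (0.0357). *Pdk4* passed the filter on low counts in no comparison, and 34 identifiers were tested in all 22 fits. Reads of some members may be shared with near-identical copies. The copies of *Gapdh* reached 638 CPM against 2012 CPM for *Gapdh* itself, and a *Tpi1* copy, at 64.8 CPM, lay above *Tpi1*, at 20.3 CPM. The other *Pkm* identifier, at 69.2 CPM against 1803 CPM for *Pkm*, was treated as such a copy.

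As a share of all counts, the 39 identifiers together took 0.923% ± 0.057 (SD, n = 3) in Normoxia Trim AGU to 1.04% ± 0.035 in Normoxia Plus A. In hypoxia the share was 1.27% ± 0.018 in Plus A to 1.503% ± 0.19 in Trim AGU among the miR-125b mimics, and 1.60% ± 0.039 in MC. The normoxic and hypoxic ranges did not overlap.

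Hypoxia was compared with normoxia within each of 5 mimics, to see how these genes responded to the low-oxygen condition. Calls needed a fold change of at least 1.5 and an adjusted p below 0.05 in edgeR's quasi-likelihood test (Benjamini-Hochberg, over all genes tested). Differences are log2 fold changes of hypoxia over normoxia with their SE, from 3 against 3 libraries. Under miR-125b, 12 members rose and 4 fell, where 20.9% of all genes were called, 9.34% higher and 11.5% lower. Plus A gave 5 higher and 8 lower (22.8% of all genes, 10% higher and 12.8% lower), and Trim A 6 and 6 (26.5%, 12% and 14.5%). Trim AG gave 6 and 9 (32.8%, 15% and 17.8%), and Trim AGU 11 and 8 (27%, 13.6% and 13.4%). In that order of mimics 35, 37, 35, 37 and 36 members were tested. Their median change was 0.35, 0.07, 0.29, 0.25 and 0.37, with medians over all genes of 0.00 to 0.02. In total, 27 identifiers were called in at least 1 of the 5 comparisons and none was called in opposite directions. Those never called were *Slc2a3*, *Hk1*, *Gpi*, *Pfkfb3*, *Pgam1*, *Eno1*, *Slc16a1*, *Slc16a3*, *Pdk4*, *Gys1*, *Pygl* and *Pygm*. Isoforms of the same step moved apart: *Slc2a1* rose and *Slc2a4* fell under Plus A, Trim A and Trim AGU, *Pfkl* rose and *Pfkm* fell under all mimics but Trim AG, and *Ldhb* fell under all 5 while *Ldha* rose under Trim AGU alone.

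**Figure D1:**
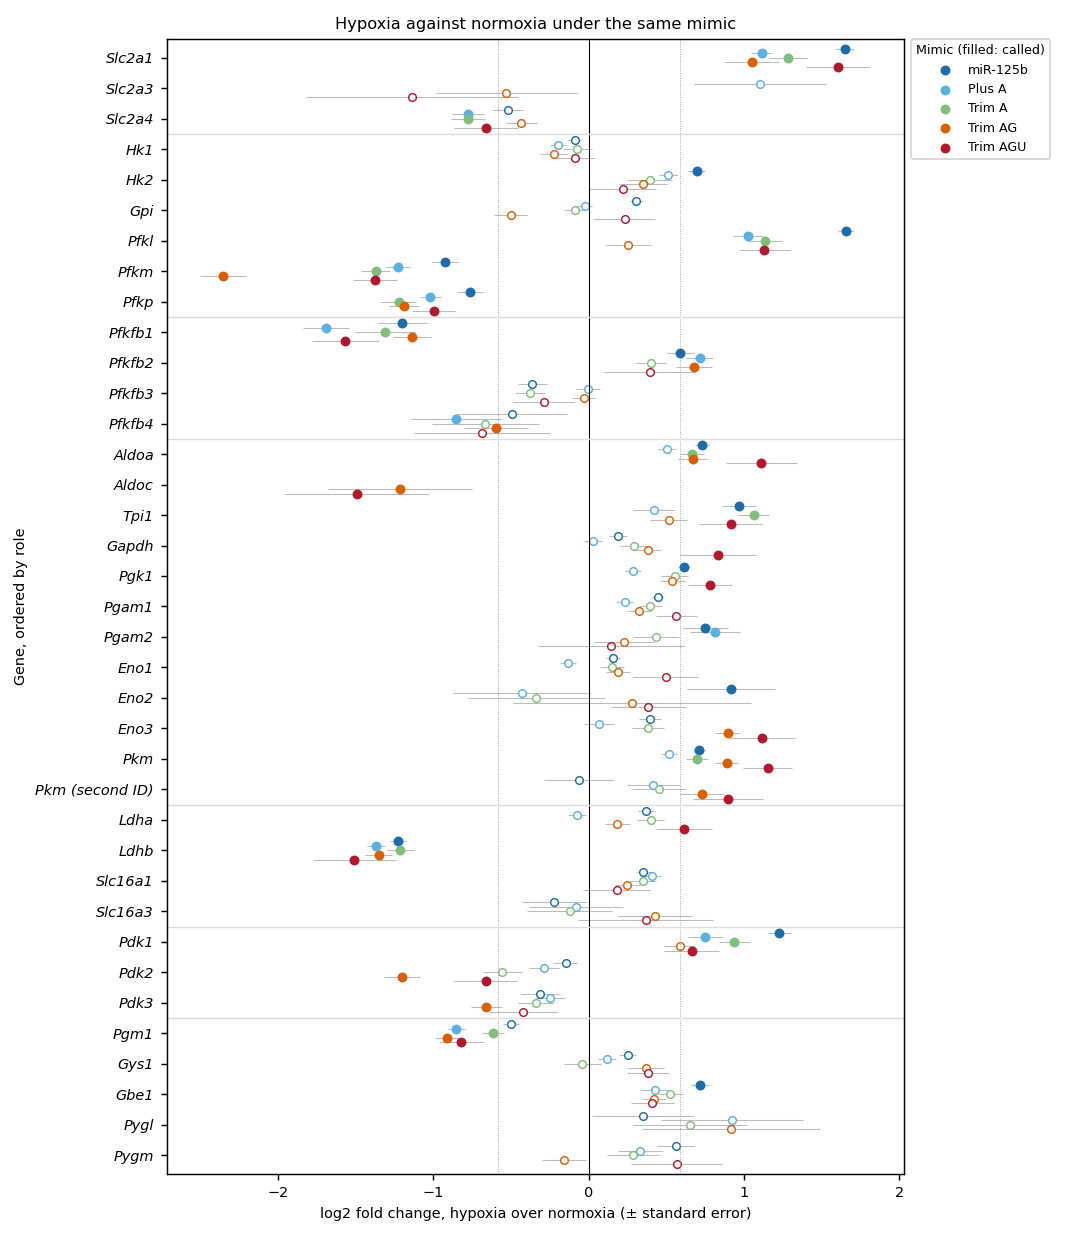
Log2 fold change of hypoxia over normoxia (horizontal axis, ± SE) for each member (rows, ordered by role) under 5 mimics, with filled points for calls and dotted lines at a fold change of 1.5. *Slc2a1* lay right of the line and *Pfkm*, *Pfkp*, *Pfkfb1* and *Ldhb* left of it under all 5 mimics; the *Pfkfb4* identifier tested under Plus A alone is left out.

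*Slc2a1* encodes GLUT1, the basal glucose transporter, and was the only member called higher under all 5 mimics. Its level was 25.1, 27.3 and 29.4 CPM in Normoxia miR-125b and 88.1, 91.4 and 91.7 CPM in Hypoxia miR-125b. Under Plus A it was 27.1, 25.8 and 28.3 CPM in normoxia and 59.9, 65.0 and 65.2 CPM in hypoxia, and under Trim A 24.4, 21.5 and 22.6 CPM against 69.4, 49.6 and 57.0 CPM. Every hypoxic library lay above every normoxic one. Trim AG gave 33.8, 31.9 and 32.4 CPM in normoxia and 86.1, 47.7 and 69.2 CPM in hypoxia, and Trim AGU 26.6, 19.6 and 23.6 CPM against 91.6, 53.2 and 64.0 CPM, so the hypoxic trimmed groups were the most spread, with replicate 2, highest in mitochondrial counts, lowest in each. The log2 change was 1.65 ± 0.06 under miR-125b (3.13-fold), 1.12 ± 0.07 under Plus A, 1.28 ± 0.12 under Trim A, 1.05 ± 0.17 under Trim AG (2.07-fold) and 1.61 ± 0.21 under Trim AGU, with adjusted p of at most 0.00187. *Slc2a4*, the GLUT4 transporter that insulin moves to the surface of muscle cells, went the other way. It was at 14.6 to 18.1 CPM in normoxia and 7.49 to 13.0 CPM in hypoxia, and fell under Plus A (−0.78), Trim A (−0.78) and Trim AGU (−0.66), with −0.52 and −0.43 under miR-125b and Trim AG, short of the 1.5-fold limit. *Slc2a3*, the GLUT3 transporter of neurons, was at most 0.869 CPM in any library.

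The promoter window of *Slc2a1* is shown with that of *Pdk1*, because both genes rose, and with that of *Pfkm*, which fell. The windows come from RefSeq (GRCr8), which held one for 34 of the 37 symbols, and reach from 250 bases before to 50 bases after the start of the gene. Capitals mark ACGTG or GCGTG, the core letters of the HIF-binding motif, on either strand, where the opposite strand reads CACGT or CACGC; matches may overlap each other.
Slc2a1, chr5:138002272-138002571, + strand: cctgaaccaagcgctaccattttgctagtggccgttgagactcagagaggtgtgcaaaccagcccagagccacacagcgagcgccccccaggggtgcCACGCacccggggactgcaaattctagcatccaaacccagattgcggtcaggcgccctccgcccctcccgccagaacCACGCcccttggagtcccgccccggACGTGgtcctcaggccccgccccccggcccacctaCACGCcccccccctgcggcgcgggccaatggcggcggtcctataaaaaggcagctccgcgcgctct
Pdk1, chr3:77113264-77113563, + strand: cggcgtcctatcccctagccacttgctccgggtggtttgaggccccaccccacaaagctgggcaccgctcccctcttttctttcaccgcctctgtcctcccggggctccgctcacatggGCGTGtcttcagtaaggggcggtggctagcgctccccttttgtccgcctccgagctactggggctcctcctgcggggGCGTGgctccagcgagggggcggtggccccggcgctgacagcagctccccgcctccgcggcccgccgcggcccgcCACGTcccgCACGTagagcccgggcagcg
Pfkm, chr7:131113849-131114148, + strand: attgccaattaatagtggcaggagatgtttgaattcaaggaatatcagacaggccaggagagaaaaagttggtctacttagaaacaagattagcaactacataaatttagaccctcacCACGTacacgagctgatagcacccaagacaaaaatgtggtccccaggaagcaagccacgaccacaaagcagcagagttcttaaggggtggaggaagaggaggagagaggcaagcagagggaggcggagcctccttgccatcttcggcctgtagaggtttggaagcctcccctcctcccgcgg
*Slc2a1* and *Pdk1* each held 4 matches, a number reached by 3.46% of all 33469 windows of this length, and *Pfkm* held 1. The members *Ldha*, *Pdk3* and *Slc16a1* held as many or more without rising under most mimics: *Ldha* held 6 and rose under Trim AGU alone, *Pdk3* held 5 and fell under Trim AG, and *Slc16a1* held 4 and was not called between hypoxia and normoxia. No relation of the number of matches to the direction of change is read from these windows. At least 1 match was found in 25 of the 38 windows of members (65.8%) and in 41.6% of all windows. The 5 members called higher under 4 or 5 mimics had a match in 4 cases, and the 4 called lower under all mimics in 3. A match is a run of letters and was not tested as a binding site.

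Phosphofructokinase, the committing enzyme, is a tetramer of liver (*Pfkl*), muscle (*Pfkm*) and platelet (*Pfkp*) subunits, and its subunits moved apart. *Pfkl* was 72.0, 65.9 and 68.9 CPM in Normoxia miR-125b and 225, 229 and 237 CPM in Hypoxia miR-125b, a change of 1.66 ± 0.05 (3.15-fold, adjusted p = 6.86e-08). Under Plus A it was 70.9, 77.7 and 70.3 CPM against 136, 171 and 175 CPM, under Trim A 65.0, 69.6 and 69.0 CPM against 185, 134 and 154 CPM, and under Trim AGU 90.5, 67.9 and 92.3 CPM against 206, 161 and 168 CPM. These groups did not overlap, and *Pfkl* rose by 1.03 ± 0.10, 1.14 ± 0.11 and 1.13 ± 0.16. Trim AG was the exception, with 111, 106 and 112 CPM in normoxia and 159, 99.0 and 134 CPM in hypoxia, where the groups overlapped and the change was 0.26 (adjusted p = 0.16).

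*Pfkm* fell under every mimic. It was 154, 121 and 132 CPM in normoxia and 77.0, 73.1 and 77.0 CPM in hypoxia with miR-125b, and 135, 152 and 149 CPM against 61.0, 67.6 and 72.3 CPM with Plus A. With Trim A it was 130, 148 and 136 CPM against 63.4, 50.8 and 54.6 CPM, and with Trim AGU 146, 133 and 149 CPM against 63.1, 42.7 and 55.1 CPM. Hypoxia Trim AG was lowest of all, at 26.0, 16.7 and 23.0 CPM against 108, 123 and 106 CPM in Normoxia Trim AG. The log2 changes were −0.93 ± 0.08, −1.23 ± 0.08, −1.37 ± 0.10, −2.36 ± 0.15 and −1.38 ± 0.14 with miR-125b first and then the isomiRs from the longest to the shortest, with adjusted p of at most 0.000723. Hypoxia MC held 127, 120 and 127 CPM, within the normoxic range of the other mimics. *Pfkp* fell likewise under all 5 mimics. Its libraries ranged from 37.7 to 51.1 CPM in normoxia and from 15.5 to 29.6 CPM in hypoxia, with 50.9, 43.9 and 41.5 CPM against 27.3, 28.2 and 29.6 CPM under miR-125b and 39.9, 38.7 and 37.7 CPM against 19.4, 15.9 and 15.5 CPM under Trim AG. With Plus A it was 45.4, 50.2 and 47.1 CPM against 25.7, 25.1 and 25.1 CPM, with Trim A 51.1, 48.1 and 47.0 CPM against 25.8, 21.5 and 18.8 CPM, and with Trim AGU 49.0, 44.2 and 51.0 CPM against 24.6, 23.2 and 22.4 CPM. No hypoxic library reached a normoxic one. The changes were −0.76 ± 0.08, −1.02 ± 0.07, −1.22 ± 0.11, −1.19 ± 0.10 and −0.998 ± 0.14 in the same order. No call of *Slc2a1*, *Pfkm*, *Pfkp*, *Pfkfb1* or *Ldhb* between hypoxia and normoxia was lost when any library was left out.

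**Figure D2:**
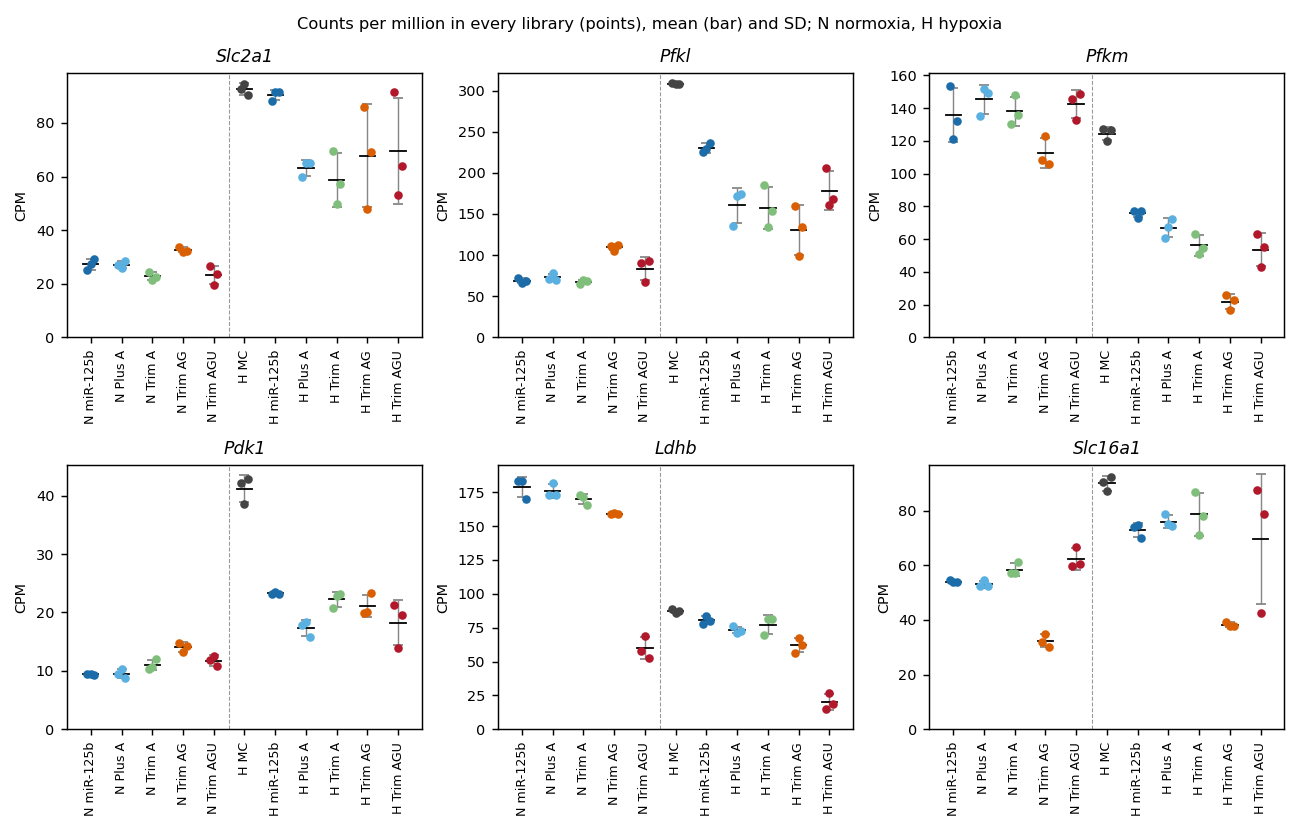
CPM in each library (points) of *Slc2a1*, *Pfkl*, *Pfkm*, *Pdk1*, *Ldhb* and *Slc16a1* in the 11 groups, normoxia (N) and hypoxia (H), with the mean as a bar and the SD of 3 libraries. *Pfkm* was lowest in Hypoxia Trim AG (16.7 to 26.0 CPM), *Ldhb* in Hypoxia Trim AGU (14.9 to 26.8 CPM), and *Pdk1* was highest in Hypoxia MC (38.6 to 42.9 CPM).

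The other steps of upper glycolysis changed less. *Hk2*, the inducible hexokinase of muscle, was at 55.4 to 72.3 CPM in normoxia and 48.2 to 114 CPM in hypoxia with miR-125b or an isomiR, and rose under miR-125b alone (0.69 ± 0.05, adjusted p = 6.75e-06), with 0.22 to 0.51 under the others. *Hk1* differed by −0.22 to −0.07 and *Gpi*, which interconverts the hexose phosphates, by −0.50 to 0.31, without a call. Among the bifunctional PFK-2 enzymes, *Pfkfb1* fell under all 5 mimics. It was 6.71, 7.73 and 7.54 CPM in normoxia and 4.02, 3.13 and 2.97 CPM in hypoxia under miR-125b, and 15.3, 13.9 and 14.9 CPM against 6.17, 7.39 and 6.42 CPM under Trim AG. Under Plus A it was 7.29, 6.81 and 6.18 CPM against 2.14, 2.39 and 2.23 CPM, under Trim A 10.1, 7.86 and 9.62 CPM against 4.54, 4.24 and 2.96 CPM, and under Trim AGU 10.9, 8.999 and 10.3 CPM against 3.75, 3.36 and 2.79 CPM. Hypoxic libraries lay below normoxic ones within every mimic, and the changes were −1.201 ± 0.16, −1.69 ± 0.15, −1.31 ± 0.19, −1.14 ± 0.12 and −1.57 ± 0.21. *Pfkfb2*, the heart form, rose under miR-125b (0.59), Plus A (0.71) and Trim AG (0.68). *Pfkfb3*, a form often induced in hypoxia, differed by −0.38 to 0.00 and was not called, and *Pfkfb4*, at 0.377 to 3.49 CPM, fell under Plus A (−0.86) and Trim AG (−0.60). The calls of *Pfkfb2* under miR-125b and of *Pfkfb4* were each lost in 4 of 6 fits with a library left out. The other *Pfkfb4* identifier, ENSRNOG00000048130, was erratic. It had 67, 30 and 59 reads in Normoxia Plus A and 2, 1 and 3 reads in Hypoxia Plus A, but 62, 28 and 4 reads in Normoxia Trim AG and 1, 2 and 44 reads in Normoxia Trim A.

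Of the 12 identifiers of lower glycolysis, 6 of 11 tested rose under miR-125b, 1 of 11 under Plus A and 3 of 11 under Trim A. Under Trim AG 4 of 12 rose, and under Trim AGU 7 of 12, with both *Pkm* identifiers in each of these 2 counts. Of all genes, 9.34%, 10%, 12%, 15% and 13.6% were called higher in these comparisons. The only identifier of the 12 that fell was *Aldoc*, under Trim AG and Trim AGU. It lay under 1 CPM, and its calls were lost in 6 and 5 of 6 fits with a library left out. *Pkm*, pyruvate kinase, rose under miR-125b (0.71 ± 0.04), Trim A (0.70 ± 0.07), Trim AG (0.89 ± 0.07) and Trim AGU (1.15 ± 0.16), from 1071 to 1376 CPM in normoxia to 2047 to 2564 CPM in hypoxia over all mimics. Under Plus A its change was 0.52. *Aldoa*, aldolase A, rose under the same mimics by 0.73, 0.67, 0.67 and 1.11, and was at 0.51 under Plus A. Triose phosphate isomerase *Tpi1* rose under miR-125b (0.97), Trim A (1.06) and Trim AGU (0.91), and phosphoglycerate kinase *Pgk1* under miR-125b (0.61) and Trim AGU (0.78). With the counts of near-identical copies added, *Tpi1* changed by 0.60 under miR-125b, 0.76 under Trim A and 1.15 under Trim AGU, still called under each. *Eno3*, the muscle enolase, rose under Trim AG (0.90) and Trim AGU (1.12), as did the other *Pkm* identifier (0.73 and 0.90). *Pgam2*, the muscle phosphoglycerate mutase, rose under miR-125b (0.75) and Plus A (0.81), *Eno2*, the neuronal enolase, under miR-125b (0.92), and *Gapdh* under Trim AGU (0.83), where 2282, 3617 and 2495 CPM in hypoxia stood against 1795, 1532 and 1594 CPM in normoxia. The call of *Eno2* was lost in 3 of 6 fits with a library left out, with a change of 0.47 without Hypoxia miR-125b replicate 1, which was at 12.1 CPM against 5.68 and 5.84 CPM in the other hypoxic libraries. Under Trim AGU the calls of *Tpi1*, the other *Pkm* identifier, *Aldoa* and *Pgk1* were lost in 4, 3, 2 and 1 of 6 such fits. *Gapdh* changed by 0.02 to 0.38 under the other mimics, *Pgam1* by 0.23 to 0.56 and *Eno1* by −0.13 to 0.50 under all 5, without a call.

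*Ldhb* encodes the H subunit of lactate dehydrogenase, which favours the oxidation of lactate, and fell under all 5 mimics. It was 183, 183 and 170 CPM in normoxia and 78.1, 83.9 and 80.2 CPM in hypoxia with miR-125b, 173, 182 and 173 CPM against 76.1, 71.2 and 72.8 CPM with Plus A, and 173, 171 and 166 CPM against 69.4, 81.2 and 81.1 CPM with Trim A. With Trim AG it was 159, 160 and 159 CPM against 56.6, 67.2 and 62.2 CPM. Trim AGU started lower, at 58.1, 69.0 and 53.0 CPM, and went to 14.9, 26.8 and 18.8 CPM. The changes were similar in size, at −1.23 ± 0.05, −1.37 ± 0.06, −1.21 ± 0.09, −1.35 ± 0.09 and −1.51 ± 0.27. *Ldha*, whose product favours the making of lactate, rose under Trim AGU (0.61 ± 0.18, adjusted p = 0.0387) and differed by −0.07 to 0.40 elsewhere. The transporters *Slc16a1* (MCT1) and *Slc16a3* (MCT4) differed by 0.18 to 0.41 and by −0.22 to 0.43, with no call.

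*Pdk1*, the kinase of this family that HIF-1 is best known to induce, was 9.38, 9.47 and 9.31 CPM in Normoxia miR-125b and 23.2, 23.5 and 23.1 CPM in Hypoxia miR-125b, a rise of 1.23 ± 0.07 (2.34-fold). It rose by 0.75 ± 0.11 under Plus A, 0.94 ± 0.10 under Trim A and 0.66 ± 0.18 under Trim AGU. Under Trim AG it was 14.8, 13.2 and 14.3 CPM against 19.9, 20.01 and 23.3 CPM, a difference of 0.58 (adjusted p = 0.00115) that missed the 1.5-fold limit. *Pdk2* fell under Trim AG, from 17.3, 17.0 and 17.7 CPM to 8.55, 6.63 and 7.31 CPM (−1.203 ± 0.12), and under Trim AGU (−0.66 ± 0.20), and *Pdk3* fell under Trim AG (−0.66 ± 0.10). In the glycogen genes, *Pgm1*, which links glucose 1- and 6-phosphate, fell under Plus A (−0.85), Trim A (−0.62), Trim AG (−0.91) and Trim AGU (−0.82), with −0.50 under miR-125b. The branching enzyme *Gbe1* rose under miR-125b (0.71) and differed by 0.41 to 0.52 elsewhere. *Gys1* (−0.04 to 0.38) and the glycogen phosphorylases *Pygm* (−0.16 to 0.57) and *Pygl* (0.35 to 0.92, at under 1 CPM) were not called. Under Trim AGU, 5 of the 6 libraries left out in turn ended the calls of *Gapdh*, *Ldha*, *Pdk1*, *Pdk2* and *Slc2a4*, and the 19 members called there became 9 without Normoxia Trim AGU replicate 3 and 11 without Normoxia replicate 1 or 2 or Hypoxia replicate 3.

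Isoform shares put these changes on a scale that can be compared between genes. In summed FPKM of the 3 phosphofructokinase subunits, *Pfkl* made up 26.0% to 43.7% over the 15 normoxic libraries and 60.6% to 76.9% over the 15 hypoxic libraries with miR-125b or an isomiR. *Pfkm* went from 38.3% to 52.0% down to 11.6% to 25.3%, with the lowest share in Hypoxia Trim AG (11.8% ± 0.38, SD, n = 3), against 25.3% ± 0.69 in Hypoxia MC. The ranges of normoxia and hypoxia did not overlap for either subunit. *Slc2a1* made up 53.4% to 66.2% of the 3 glucose transporters in normoxia and 77.8% to 89.9% in hypoxia, and *Ldhb* 5.55% to 15.5% and 1.26% to 6.80% of the lactate dehydrogenase subunits. The *Ldhb* ranges overlapped because of Normoxia Trim AGU, at 6.18% ± 1.07, while Hypoxia Trim AGU was at 1.45% ± 0.26. *Pdk1* rose from 20.1% to 26.5% of the 4 kinases to 33.6% to 53.4%. Among the PFK-2 isozymes, *Pfkfb1* went from 22.7% to 45.6% in normoxia to 8.08% to 26.7% in hypoxia, and Hypoxia MC was lowest at 6.33% to 6.72%. *Eno1* stayed at 93.9% to 96.9% of the enolases in these 30 libraries.

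**Figure D3:**
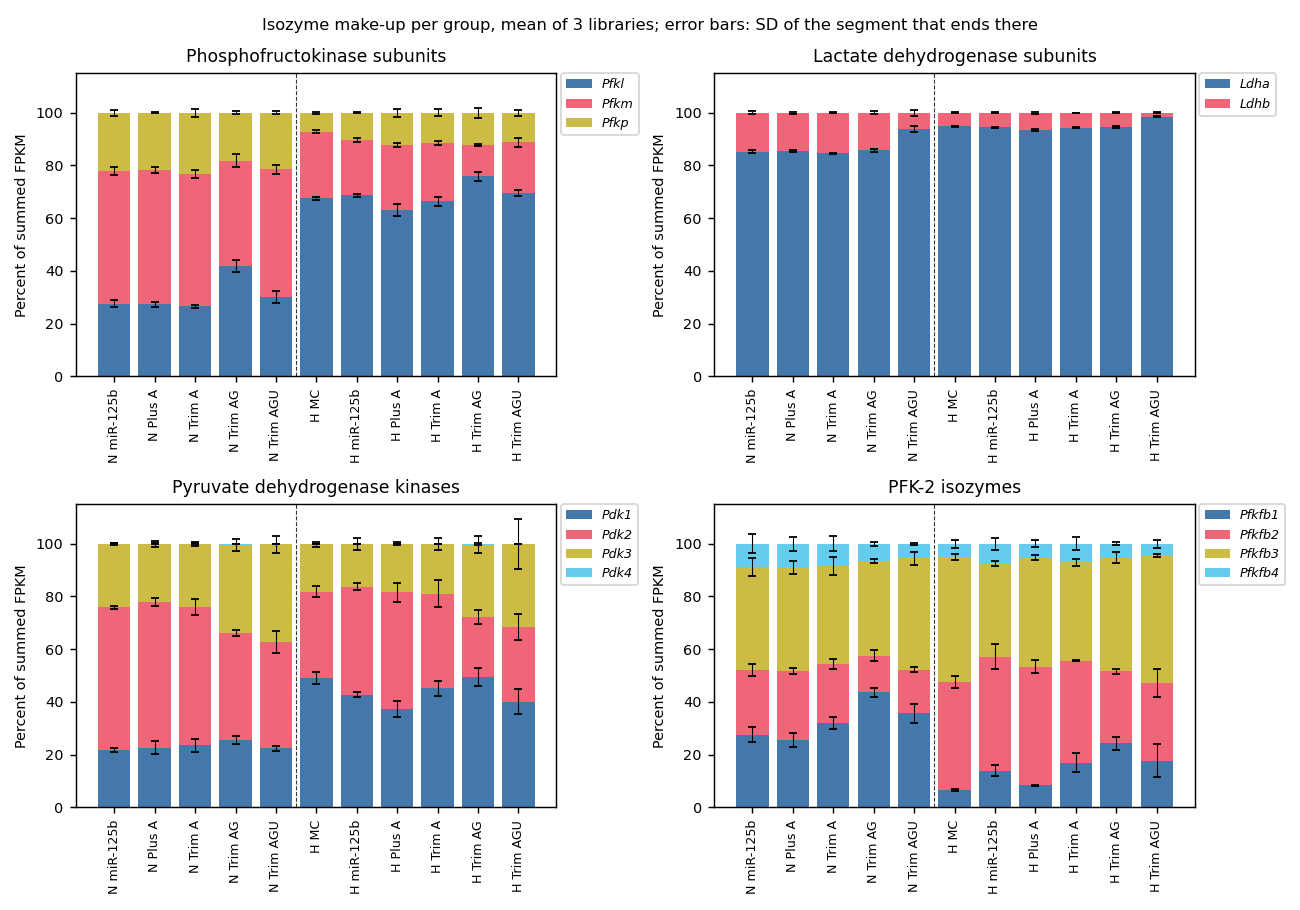
Percent of the summed FPKM (vertical axis) of phosphofructokinase subunits, lactate dehydrogenase subunits, pyruvate dehydrogenase kinases and PFK-2 isozymes in the 11 groups, as stacked means of 3 libraries with the SD of each segment. The *Pfkl* segment was 26.0% to 43.7% in normoxic libraries and 60.6% to 76.9% in hypoxic ones with miR-125b or an isomiR.

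In hypoxia each mimic was compared with MC, which asks how miR-125b and its isomiRs changed these genes under low oxygen. Most calls were lower than MC. Under miR-125b 2 members were higher and 3 lower, where 21.9% of all genes were called, 9.43% higher and 12.5% lower. Under Plus A 1 was higher and 10 lower (24.8% of all genes, 10.5% and 14.4%), under Trim A 2 and 12 (28.1%, 12.4% and 15.7%), under Trim AG 2 and 8 (37.2%, 17% and 20.2%) and under Trim AGU 1 and 7 (23.8%, 11.4% and 12.4%). In that order 37, 36, 36, 36 and 36 members were tested. Their medians were −0.16, −0.28, −0.24, −0.36 and −0.22, and those over all genes −0.02 to 0.00. All 5 comparisons share the Hypoxia MC libraries, so they do not count as separate evidence.

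**Figure D4:**
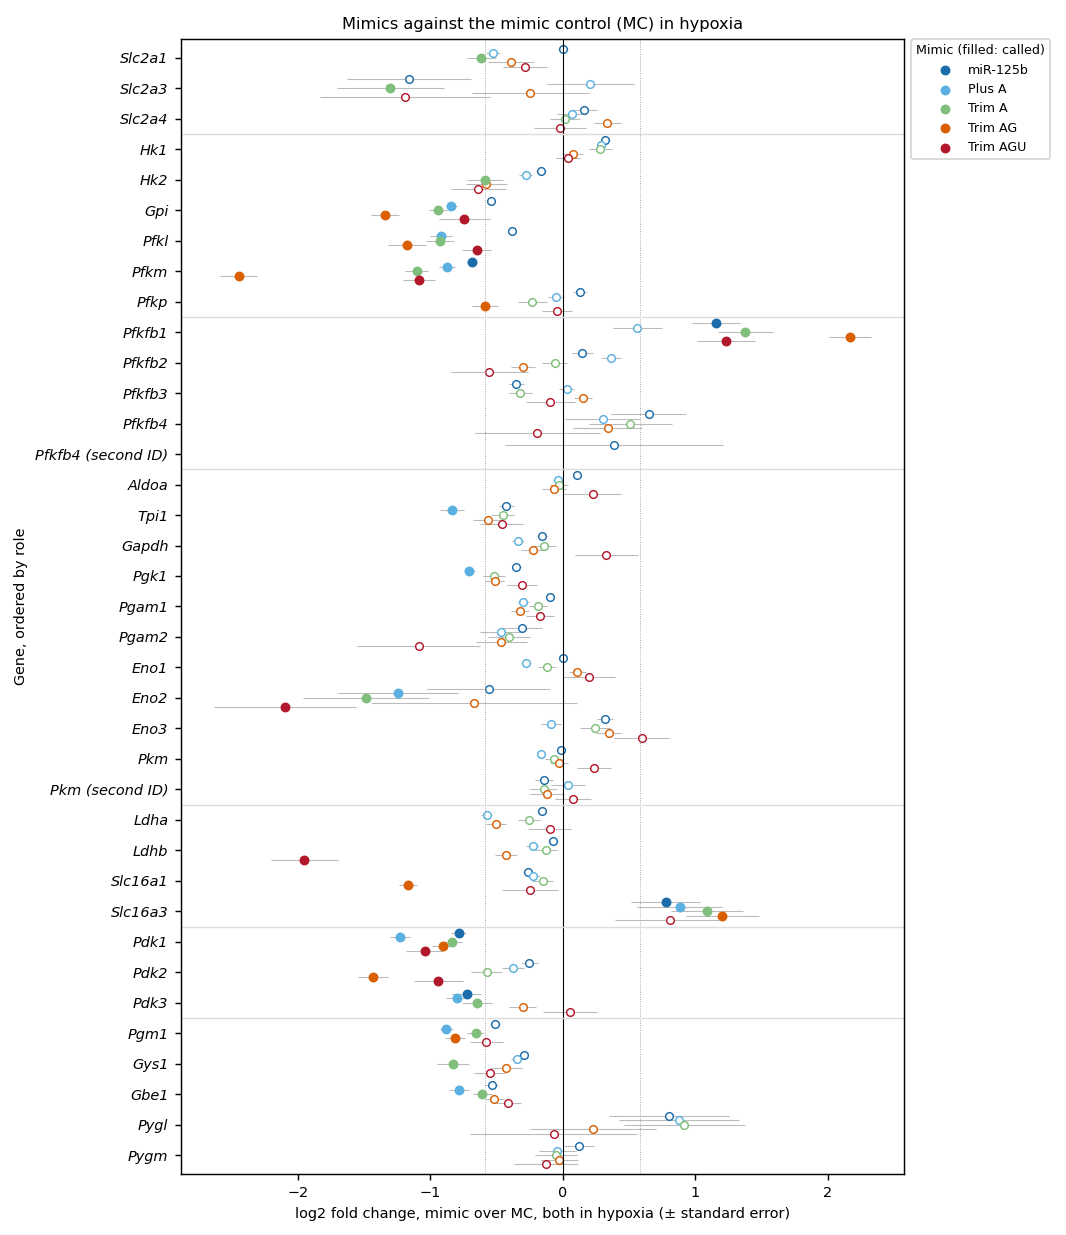
Log2 fold change of each mimic over MC in hypoxia (horizontal axis, ± SE) for each member (rows, ordered by role), with filled points for calls and dotted lines at a fold change of 1.5. *Pfkm* and *Pdk1* lay left of the line under all 5 mimics; *Aldoc* and *Pdk4* were not tested.

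*Pfkm* and *Pdk1* were lower than MC under all 5 mimics. From 127, 120 and 127 CPM in Hypoxia MC, *Pfkm* was lower by −0.68 ± 0.04 under miR-125b, −0.87 ± 0.06 under Plus A, −1.10 ± 0.09 under Trim A, −2.44 ± 0.14 under Trim AG (5.44-fold) and −1.08 ± 0.12 under Trim AGU, with adjusted p of at most 0.00193. *Pdk1* was 42.1, 38.6 and 42.9 CPM in Hypoxia MC, 17.9, 18.3 and 15.8 CPM in Plus A, 20.8, 22.8 and 23.2 CPM in Trim A and 21.2, 13.9 and 19.6 CPM in Trim AGU. It was lower by −0.79 ± 0.05, −1.23 ± 0.08, −0.84 ± 0.08, −0.90 ± 0.09 and −1.04 ± 0.14 in the order above, and no library of the mimics overlapped MC. None of these 10 calls was lost on leaving out a library.

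*Gpi* and *Pfkl* were lower under the 4 isomiRs. *Gpi* was 623, 626 and 609 CPM in MC, 408, 414 and 420 CPM in miR-125b, 336, 338 and 347 CPM in Plus A and 334, 294 and 310 CPM in Trim A. Trim AG held 269, 198 and 234 CPM and Trim AGU 311, 406 and 279 CPM, so every mimic lay below MC. The differences were −0.54 under miR-125b, under the fold limit, then −0.84 ± 0.04, −0.94 ± 0.07, −1.34 ± 0.11 and −0.74 ± 0.19, the last of which lost its call in 5 of 6 fits with a library left out. *Pfkl*, at 309, 308 and 308 CPM in MC, differed by −0.38 under miR-125b and was lower by −0.92 ± 0.08, −0.92 ± 0.11, −1.18 ± 0.14 and −0.65 ± 0.11 under the isomiRs. *Pgm1* was lower under Plus A (−0.88), Trim A (−0.66) and Trim AG (−0.81). *Pdk3* was lower under Trim A (−0.65), miR-125b (−0.72) and Plus A (−0.80), and *Pdk2*, at 20.9, 22.3 and 20.2 CPM in MC, under Trim AG (−1.43 ± 0.11) and Trim AGU (−0.94 ± 0.19; 12.7, 7.15 and 10.4 CPM).

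Some members were lower under 1 or 2 mimics. *Slc16a1* was 90.3, 87.0 and 92.5 CPM in MC and 39.3, 37.8 and 38.0 CPM in Trim AG (−1.17 ± 0.07, adjusted p = 2.69e-06), against 70.2 to 87.5 CPM in the other hypoxic libraries with miR-125b or an isomiR, except Trim AGU replicate 2 at 42.6 CPM. *Ldhb* was 88.8, 85.8 and 87.1 CPM in MC and lower under Trim AGU (−1.95 ± 0.25, adjusted p = 0.00315; 3.86-fold), with −0.43 to −0.08 under the others. Under Plus A, *Tpi1* (−0.83), *Pgk1* (−0.70) and *Gbe1* (−0.78) were lower, but with the counts of its near-identical copies added *Tpi1* differed by −0.46 and was not called. Under Trim A, *Slc2a1* (−0.61), *Hk2* (−0.59), *Gys1* (−0.83) and *Gbe1* (−0.61) were lower, and under Trim AG *Pfkp* (−0.59). Leaving out a library ended the call in 3 of 6 fits for *Hk2* and for *Pfkp*, in 2 for *Gbe1* under Trim A and in 1 for *Slc2a1*, and likewise in 3 for *Pdk2* and 1 for *Pfkl* under Trim AGU and in 1 for *Pdk3* under Trim A. *Slc2a3*, at 0.595, 0.470 and 0.686 CPM in MC and 0.322, 0.190 and 0.174 CPM in Trim A, was called lower there (−1.30 ± 0.40), a call lost in 4 of 6 fits with a library left out. *Eno2* was called lower under Plus A (−1.24 ± 0.45), Trim A (−1.48 ± 0.48) and Trim AGU (−2.10 ± 0.54). It was at 6.18, 22.8 and 6.62 CPM in MC, 4.11, 4.21 and 6.50 CPM in Plus A, 4.18, 4.31 and 3.85 CPM in Trim A and 2.81, 2.07 and 2.70 CPM in Trim AGU, so 1 MC library stood far above the rest. Without Hypoxia MC replicate 2 the Plus A difference was −0.35 (adjusted p = 0.213), and the calls under Plus A, Trim A and Trim AGU were lost in 3, 2 and 2 of 6 fits with a library left out.

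Only *Pfkfb1* and *Slc16a3* were called higher than MC. *Pfkfb1* was 1.55, 1.51 and 1.58 CPM in MC, 2.14, 2.39 and 2.23 CPM in Plus A, 4.54, 4.24 and 2.96 CPM in Trim A and 3.75, 3.36 and 2.79 CPM in Trim AGU, and each mimic lay above MC. The differences were 1.16 ± 0.18 under miR-125b, 1.38 ± 0.21 under Trim A, 2.17 ± 0.16 under Trim AG (4.49-fold) and 1.23 ± 0.22 under Trim AGU, and 0.56 under Plus A, just short of the fold limit. *Slc16a3* was 0.661, 0.806 and 1.24 CPM in MC, 1.48, 1.55 and 1.49 CPM in miR-125b, 1.14, 2.16 and 1.62 CPM in Plus A, 2.09, 1.84 and 1.65 CPM in Trim A and 2.18, 1.60 and 2.18 CPM in Trim AG. It was higher by 0.78 ± 0.26, 0.88 ± 0.32, 1.09 ± 0.27 and 1.204 ± 0.28, and the first 2 calls were lost in 5 and 4 of 6 fits with a library left out, as was that of *Pfkfb1* under Trim AGU in 2. Against MC, the abundant *Pkm* (−0.16 to 0.24), *Aldoa* (−0.07 to 0.23), *Eno1* (−0.28 to 0.20) and *Gapdh* (−0.33 to 0.33) were not called. The 8 members called under Trim AGU became 5 without Hypoxia Trim AGU replicate 3, or without MC replicate 2 or 3.

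Each isomiR was then compared with miR-125b itself, which asks what the 3′ end changes when the seed is the same. In hypoxia Trim AG gave the most calls, among the members and among all genes. Of 36 members tested 1 was higher and 6 were lower, where 19.3% of all genes were called, a similar share. Calls over all genes are not split by direction in the comparisons with miR-125b. *Pfkm* was lower by −1.77 ± 0.14 (3.42-fold, adjusted p = 5.65e-05), from 77.0, 73.1 and 77.0 CPM to 26.0, 16.7 and 23.0 CPM. *Pdk2* was lower by −1.19 ± 0.11, from 17.5, 17.6 and 16.9 CPM to 8.55, 6.63 and 7.31 CPM, and *Slc16a1* by −0.91 ± 0.07, from 74.1, 74.9 and 70.2 CPM to 39.3, 37.8 and 38.0 CPM. The groups did not overlap for any of these genes. *Gpi* (−0.81 ± 0.10), *Pfkl* (−0.80 ± 0.14) and *Pfkp* (−0.73 ± 0.10) were lower too, so 4 of the 6 members of upper glycolysis were called. *Pfkfb1* was higher by 1.001 ± 0.17. None of these 7 calls was lost on leaving out a library.

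The other isomiRs gave few calls against miR-125b in hypoxia. Without the fold limit, at an adjusted p below 0.05 in edgeR, Plus A had 1 member higher and 17 lower of 36 tested. Of all genes 2408 of 15134 passed there. Trim A had 4 members and 331 of 15115 genes, and Trim AGU 1 member and 625 of 15051 genes. Under Trim AGU the only call was *Ldhb* (3.75% of all genes were called), at 14.9, 26.8 and 18.8 CPM against 78.1, 83.9 and 80.2 CPM. The difference was −1.89 ± 0.25 (3.70-fold, adjusted p = 0.0146), and its adjusted p rose to as much as 0.107 with a library left out. Under Plus A the only call was *Pfkfb1* (2.03% of all genes), lower by −0.60 ± 0.18 (adjusted p = 0.0476), and under Trim A it was *Slc2a1* (0.873% of all genes), lower by −0.62 ± 0.11 (adjusted p = 0.0369). These 2 calls were lost in 6 and 5 of 6 fits with a library left out. Under Trim A, 6 members were called without Hypoxia Trim A replicate 1.

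In normoxia, no member was called between Plus A and miR-125b, where 0% of all genes were called by edgeR; 1 member and 404 genes had an unadjusted p below 0.05, and DESeq2 called 1 member. Without replicate 1 of both groups, whose *Cav1* levels lay with the other group, 1.12% of all genes were called and 1 member, the *Pfkfb4* identifier ENSRNOG00000048130, was higher in Plus A (3.41 ± 0.57, adjusted p = 0.0114). No member was called between Trim A and miR-125b by edgeR or DESeq2, where 0.414% of all genes were called. An unadjusted p below 0.05 in edgeR was found for 6 of 35 members and 2758 of 14732 genes.

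Under Trim AG in normoxia, of 36 members tested 5 were higher and 2 lower than under miR-125b, with 13.9% of all genes called. *Pfkfb1* was higher by 0.96 ± 0.10, *Pdk3* by 0.79 ± 0.08 (26.4, 28.1 and 24.6 CPM against 15.0, 15.3 and 14.005 CPM), *Pfkl* by 0.63 ± 0.06 and *Pygm* by 0.59 ± 0.13. *Slc16a1* was lower by −0.78 ± 0.07, at 31.9, 35.0 and 30.3 CPM against 54.5, 53.9 and 53.8 CPM, and so was the other *Pkm* identifier (−0.76 ± 0.24). That call was lost in 3 of 6 fits with a library left out (−0.98 to −0.41), where Normoxia miR-125b replicate 1 was at 107 CPM against 50.3 and 67.9 CPM in the other 2, and that of *Pygm* in 2. *Slc2a3* was called higher by 2.23 ± 0.49, at 0.869, 0.732 and 0.458 CPM against 0.206, 0.139 and 0.0695 CPM, a low level in both groups.

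Under Trim AGU in normoxia, of 37 members tested 3 were higher and 3 lower, with 11.4% of all genes called. *Ldhb* was lower by −1.58 ± 0.10 (3.00-fold, adjusted p = 0.000103), as it was in hypoxia, and the 3 Trim AGU libraries lay far below the other 12 normoxic libraries (159 to 183 CPM). *Eno2* was lower by −0.99 ± 0.19, at 1.73, 2.10 and 2.11 CPM against 3.46, 4.52 and 3.82 CPM. *Pygl* was lower by −2.74 ± 0.66, at 0.104, 0 and 0.132 CPM against 0.651, 0.592 and 0.417 CPM, a call lost in 1 of 6 fits with a library left out. *Pdk3* was higher by 0.90 ± 0.11. *Slc2a3* (1.88 ± 0.53; 0.727, 0.483 and 0.363 CPM) and *Aldoc* (1.25 ± 0.36; 0.624, 0.862 and 0.595 CPM against 0.308, 0.244 and 0.313 CPM) were called higher at under 1 CPM, and lost the call in 4 and in 6 of 6 fits with a library left out.

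**Figure D5:**
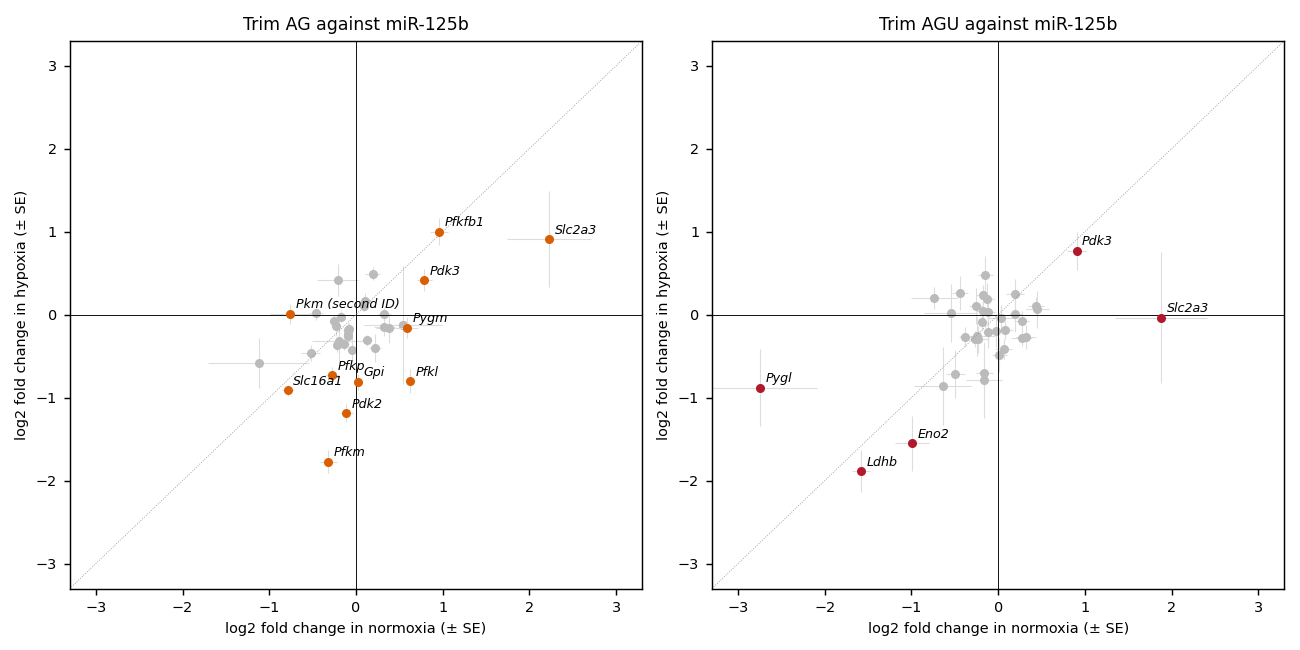
Log2 fold change of Trim AG (one panel) and of Trim AGU (the other) over miR-125b in normoxia (horizontal axis) and in hypoxia (vertical axis), ± SE, with members called in either condition coloured and named. *Slc16a1* under Trim AG (−0.78 and −0.91) and *Ldhb* under Trim AGU (−1.58 and −1.89) were lower in both conditions, while *Pfkm* under Trim AG was at −0.32 in normoxia and −1.77 in hypoxia; *Aldoc* is not shown.

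Whether an isomiR changed the response to oxygen was tested as an interaction, the change from normoxia to hypoxia under the isomiR minus that under miR-125b. For Trim AG, 8 of 38 members tested were called, all negative, with 11.3% of all genes called. The calls over all genes are not split by direction here. The median interaction was −0.20 over the members tested and −0.02 over all genes. *Pfkm* fell more under Trim AG than under miR-125b (−1.47 ± 0.18, adjusted p = 0.000185), and *Pfkl* rose less (−1.44 ± 0.16, adjusted p = 0.000127). *Pdk1* rose less as well (−0.68 ± 0.12), while the interaction of *Pdk2* was −1.09 ± 0.13, that of *Gpi* −0.85 ± 0.12 and that of *Pygm*, the muscle glycogen phosphorylase, −0.76 ± 0.17. *Slc2a1* rose less, at −0.63 ± 0.20 (adjusted p = 0.0376), a call lost in 10 of 12 fits with a library left out. The last was the *Pfkfb4* identifier ENSRNOG00000048130 (−8.57 ± 1.67), whose fitted value is not a bound. It had 0, 1 and 1 reads in Hypoxia Trim AG and 62, 28 and 4 in Normoxia Trim AG. The miR-125b libraries entered it too, with 42, 25 and 3 reads in hypoxia and 1, 2 and 6 in normoxia. For Plus A the same identifier was the only call (−7.54 ± 1.16, adjusted p = 0.0441; 0.0193% of all genes), lost in 11 of 12 fits with a library left out. No member was called by edgeR or DESeq2 for Trim A (0.605% of all genes) or for Trim AGU (0.966%). The interaction of *Ldhb* under Trim AGU was −0.26. An unadjusted p below 0.05 in edgeR was found for 8 of 36 members under Trim A and 9 of 37 under Trim AGU. Of all genes it was found for 3481 of 15534 and 3428 of 15525. For Plus A it was found for 21 of 38 members and 2509 of 15569 genes.

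Genes around the pathway were taken from 6 lists, on gluconeogenesis, the pentose phosphate pathway, glucose sensing, other glucose transport and hexose entry, other glycogen genes, and partners of lactate and pyruvate. Of 78 symbols 71 were found. Between hypoxia and normoxia, 7 were higher and 9 lower of 57 tested under miR-125b, 9 and 9 of 58 under Plus A, 12 and 8 of 57 under Trim A, 12 and 8 of 57 under Trim AG, and 10 and 10 of 56 under Trim AGU. Of all genes, 20.9%, 22.8%, 26.5%, 32.8% and 27% were called in these comparisons. Those that rose under all 5 mimics were *Myc* (0.71 to 1.58), a growth regulator that drives glycolytic genes; *Txnip* (0.75 to 1.25), an inhibitor of glucose uptake; *Vhl* (0.63 to 0.87), which marks HIF for degradation; the lactate transporter *Slc16a8* (1.49 to 2.91); and the glycogen-binding genes *Ppp1r3c* (0.77 to 1.61) and *Stbd1* (0.59 to 1.49). Those that fell under all 5 were the pyruvate and lactate transporter *Slc16a7* (−1.45 to −0.95), the brain glycogen phosphorylase *Pygb* (−1.66 to −0.88) and *H6pd* (−1.51 to −0.88), which feeds the pentose phosphate route in the endoplasmic reticulum.

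Against MC in hypoxia the same lists gave 5 higher and 6 lower of 58 under miR-125b, 6 and 7 of 57 under Plus A, 10 and 8 of 58 under Trim A, 11 and 13 of 58 under Trim AG, and 9 and 7 of 57 under Trim AGU, where 21.9%, 24.8%, 28.1%, 37.2% and 23.8% of all genes were called. Pyruvate carboxylase *Pc* (0.64 to 1.27), *Myc* (0.75 to 1.59) and *Stbd1* (0.91 to 1.19) were higher under all 5 mimics. The AMP kinase subunit *Prkaa2* was higher under 4 (1.09 to 1.75) and *Slc16a8* under 4 (0.99 to 1.36). The glucose transporter *Slc2a12* (−1.84 to −0.66), *Ppp1r3c* (−1.85 to −0.80) and *H6pd* (−1.29 to −0.74) were lower under all 5, and the fructose transporter *Slc2a5* under 4 (−2.09 to −0.83).

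For Normoxia MC the authors' mean per gene was set beside their mean for Normoxia Plus A, with no error and no test. *Slc2a1* was at 804.5 in Plus A and 445.2 in MC, *Aldoa* at 55312 and 38588, *Gapdh* at 52627 and 41164, and *Ldha* at 36844 and 28450, in the authors' normalized units. In the other direction, *Pfkm* was at 4320 and 6034, *Pgm1* at 2817 and 4177, *Pdk3* at 395 and 621, and *Slc16a1* at 1577 and 2004. *Ldhb*, at 5223 and 5370, and *Pgam1*, at 16917 and 16509, were close to equal.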

How the data were processed

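RNA of H9C2 cells was sequenced as non-stranded poly-A libraries, 3 per group of mimic and oxygen. The authors deposited 12 tables, of which 11 hold raw read counts per gene and library and the FPKM that the authors made from them; the submitters' processing notes name HISAT2 and StringTie, and the genome build is not given in the sources used here. For Normoxia MC, and for Normoxia Plus A beside it, 1 table holds the authors' group means, a normalized signal, without counts. The authors' fold changes and p-values, from their DESeq2 test, and 66 columns of their normalized values were not used.

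Members were matched by symbol, and CPM is a count scaled to the library total. The test was edgeR 4.0.16 under R 4.3.3 (TMM, filterByExpr, quasi-likelihood test) on the libraries of the groups compared, in 18 comparisons of 2 groups and 4 interactions of oxygen with an isomiR. A call needed a Benjamini-Hochberg adjusted p below 0.05 over all genes tested and a fold change of at least 1.5. The SE of a log2 change is its size divided by the root of its F statistic. Totals were 28361216 to 42672584 counts per library, and replicates differed by more than sampling noise (chi-square per gene of 4.97 or more), so each was kept. On simulated counts of 15028 genes for miR-125b between hypoxia and normoxia, 200 genes were changed. Of these changes, 73.8% of 2-fold and 95.2% of 4-fold ones were recovered, with 6.5% of calls false. In the data themselves 20.9% of genes were called, so these rates may not carry over. Alternatives were DESeq2 1.42.0, library totals without TMM, no filter, a block for the replicate number, 1 fit of all libraries, and each library left out; summing near-identical copies was added after the data were seen. Every member found was named. Values per library were given for members called under all 5 mimics between hypoxia and normoxia, or called with a log2 fold change of at least 1 in size between mimics or in an interaction. Genes of the 6 lists were named where called in all 5 oxygen comparisons or with that size in at least 3 comparisons with MC. Members and lists were chosen with earlier results of these data known. Figures were drawn with matplotlib 3.10.9.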

Additional observations from a re-analysis of the deposited data

Results flagged for a closer look

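In a test of the difference in oxygen response from miR-125b, 8 of 38 members tested were called for Trim AG, with 11.3% of all genes called. For Plus A 1 of 38 was called, with 0.0193% of all genes. Under Trim AG the interactions (log2, edgeR) were −1.47 for *Pfkm* (adjusted p = 0.000185), −1.44 for *Pfkl* (0.000127), −1.09 for *Pdk2* (0.000146), −0.85 for *Gpi* (0.000416), −0.76 for *Pygm* (0.008), −0.68 for *Pdk1* (0.00187) and −0.63 for *Slc2a1* (0.0376). The call of *Slc2a1* was lost in 10 of 12 fits with a library left out. The *Pfkfb4* identifier ENSRNOG00000048130 gave −8.57 under Trim AG (0.00356) and −7.54 under Plus A (0.0441), on 0 to 3 reads per library in those hypoxic groups. It had 42, 25 and 3 reads in Hypoxia miR-125b and 1, 2 and 6 in Normoxia miR-125b. The Plus A call was lost in 11 of 12 fits with a library left out. The fitted size of the *Pfkfb4* values depends on the prior count.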

How the results depend on the processing

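No called value of a member changed sign under any alternative. Of 155 calls of single members, 142 of 154 were kept under DESeq2, 142 with all libraries in 1 fit, 148 without TMM, 146 without the filter, 140 with the replicate block, and 830 of 985 on leaving out a library; summing copies ended 1 of 9 calls, *Tpi1* for Plus A against MC (−0.46, adjusted p = 0.00331). Counts of members called that moved by more than 1.5 times were as follows, and their cause was not tested. With all libraries in 1 fit, Trim AGU gave 14 calls against MC (8 in the pairwise fit) and 6 against miR-125b in hypoxia (1), and the interactions gave 0 for Plus A (1) and 3 for Trim AGU (0). DESeq2 gave, against miR-125b in hypoxia, 0 for Plus A, 2 for Trim A and 5 for Trim AGU (1 each) and 1 for Plus A in normoxia (0). Without TMM, Plus A gave 0 in hypoxia and 0 in the interaction (1 each), and without the filter its interaction gave 2. Leaving out replicate 1 of both Normoxia Plus A and Normoxia miR-125b gave 1 call in normoxia and 0 in the interaction.

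Leaving out each library gave 14 to 18, 12 to 13, 12 to 14, 14 to 17 and 9 to 18 calls between hypoxia and normoxia (16, 13, 12, 15 and 19 with all; miR-125b first, then the isomiRs from the longest to the shortest), and 4 to 6, 10 to 12, 10 to 15, 9 to 14 and 5 to 11 against MC (5, 11, 14, 10 and 8). Against miR-125b the isomiRs in the same order gave 0 to 1, 0 to 6, 7 to 10 and 0 to 3 in hypoxia (1, 1, 7 and 1), 0 to 0, 0 to 0, 5 to 8 and 4 to 5 in normoxia (0, 0, 7 and 6), and 0 to 1, 0 to 2, 7 to 9 and 0 to 5 in the interactions (1, 0, 8 and 0). The 5 came without Hypoxia Trim AGU replicate 1 and the 2 without Hypoxia Trim A replicate 1. In hypoxia against miR-125b, Trim AGU gave 2 without Hypoxia Trim AGU replicate 1 and 3 without replicate 2.

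Replicate numbers did not pair the libraries of the groups compared, since 54 correlations of same-numbered deviations there ran from −0.161 to 0.0756. Hypoxia Trim A, Trim AG and Trim AGU were not correlated with each other, so pairing among these groups was not tested. In each of them replicate 2 was highest in mitochondrial counts and replicate 1 lowest. With the replicate block, the counts against miR-125b in hypoxia became 0 for Plus A and 0 for Trim A (1 each) and the Plus A interaction 0 (1), and no other count moved by over 1.5 times. Depth limits members under about 1 CPM, whose calls rest on few reads. On simulated data for Trim AGU against MC (15026 genes, 200 of them changed) 37.1% of 2-fold and 79.9% of 4-fold changes were recovered. There 8% of calls were false, and since 23.8% of genes were called in the data, these rates may not carry over.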
